A study of Mus musculus with 6 samples.

Results

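The genes described here are those of the Psm family that encode the proteasome of ordinary cells, its assembly factors and its regulators. They were taken by symbol: a row entered if its name began with Psma to Psmg followed by a digit, and Psmb8, Psmb9 and Psmb10, the subunits of the immunoproteasome, were left out. Of 49 rows with such names, 46 remained among the 11644 genes of the table. The rule itself uses symbols and no measured value, though earlier results of these data were known when it was set. One of them, Psmc3ip, shares the name only: its protein is a cofactor of meiotic recombination that was named for binding a proteasome subunit, and the other 45 encode proteins of the proteasome or its regulation. By role they comprise 7 alpha and 8 beta genes of the 20S core, 6 ATPase and 11 non-ATPase genes of the 19S cap, 7 assembly factors, and 6 genes for activators and an inhibitor.

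The libraries came from mouse MLL-ENL/NrasG12D cells, a leukemia line that carries the MLL-ENL fusion together with mutant Nras in both groups. Cells were cultured for 72 h with EPZ015666, an inhibitor of the arginine methyltransferase PRMT5, at 5 µM, or with the solvent DMSO, and treatment was repeated on day 2. There were 3 DMSO and 3 inhibitor libraries of polyadenylated RNA. The series text calls them independent but does not say what was repeated, so p-values measure only the spread between these libraries, which may be technical.

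The proteasome is the main protease of the cytosol and nucleus and degrades proteins that carry ubiquitin chains. Its 20S core is a barrel of stacked rings: the outer alpha rings form a gate, and the inner beta rings hold the proteolytic sites, which lie on Psmb5 (chymotrypsin-like), Psmb6 (caspase-like) and Psmb7 (trypsin-like). The 19S cap binds the barrel, recognises ubiquitin, removes it and threads the substrate inward with a ring of ATPases. In mammalian cells the transcription factor NRF1, the product of Nfe2l1, is known to raise the subunit genes together when proteasome activity falls, through antioxidant response elements in their promoters. Leukemia and myeloma cells are known for their dependence on this protease.

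Promoter sequence was matched for 39 of the 46 genes, in 42 windows, from RefSeq on GRCm38.p6. Each window ran from 250 bases before to 50 bases after a transcription start. Psmb1, Psmb2, Psmb7, Psmc3, Psmd3, Psmd7 and Psmg2 had no window. The 150 bases before the start are printed for 6 genes to show what the members that rose do and do not share: the catalytic Psmb5 and Psmb6, Psma1 (the gene with the largest rise in the limma fit), Psma7 (the alpha gene that did not pass the test), and Psmc6 and Psmd6 (the 19S genes with the smallest adjusted p in their groups). They run 5′ to 3′ on the gene's strand and end at the base before the start. Capitals mark any match, on either strand, to the core of the antioxidant response element (TGACNNNGC), the CCAAT box (its letters are its name), the E-box (letters CACGTG), an ETS site (letters CCGGAAG) or the GC box (letters GGGCGG).
Psmb5 (chr14:54617996-54618145, minus strand): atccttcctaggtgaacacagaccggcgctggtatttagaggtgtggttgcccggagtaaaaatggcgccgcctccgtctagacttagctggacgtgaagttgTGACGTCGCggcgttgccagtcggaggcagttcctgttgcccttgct
Psmb6 (chr11:70525207-70525356, plus strand): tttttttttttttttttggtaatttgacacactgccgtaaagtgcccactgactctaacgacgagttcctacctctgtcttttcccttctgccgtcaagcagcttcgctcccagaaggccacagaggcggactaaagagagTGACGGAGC
Psma1 (chr7:114276117-114276266, minus strand): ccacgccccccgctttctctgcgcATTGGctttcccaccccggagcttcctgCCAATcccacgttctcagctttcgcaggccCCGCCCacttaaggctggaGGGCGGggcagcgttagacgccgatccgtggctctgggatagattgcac
Psma7 (chr2:180042465-180042614, minus strand): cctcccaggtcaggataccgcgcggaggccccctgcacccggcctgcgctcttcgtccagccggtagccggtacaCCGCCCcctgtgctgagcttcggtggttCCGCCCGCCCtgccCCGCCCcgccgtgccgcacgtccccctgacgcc
Psmc6 (chr14:45329674-45329823, plus strand): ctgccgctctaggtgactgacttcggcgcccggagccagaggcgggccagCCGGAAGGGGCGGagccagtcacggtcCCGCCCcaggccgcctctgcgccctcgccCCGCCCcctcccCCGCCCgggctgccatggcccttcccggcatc
Psmd6 (chr14:14120946-14121095, minus strand): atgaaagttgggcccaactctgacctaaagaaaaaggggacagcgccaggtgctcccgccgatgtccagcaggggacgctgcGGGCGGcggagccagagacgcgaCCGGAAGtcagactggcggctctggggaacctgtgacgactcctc

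Psmb6 held the antioxidant response core with its first base 9 bases before the start, and Psmb5 held it 47 bases before. Neither Psma1 nor Psma7 had that core in its window. Psma1 carried CCAAT on both strands, with first bases 126 and 98 bases before the start, beside GC boxes. The printed stretch of Psma7 held only GC boxes, but its window had CCAAT further out, so CCAAT was present in the windows of both genes. The stretches of Psmc6 and Psmd6 each held an ETS site, 100 and 45 bases before the start, beside GC boxes, and Psmc6 had the antioxidant core further out, 227 bases before the start.

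Over all 42 windows the antioxidant core was present in 6 (14.3%), against 12.4% of 32851 windows of the promoter reference. Those 32851 windows left out chromosome 18 but were not limited to the genes of the table, so the members are set beside a wider set. Those 6 belonged to Psmb5, Psmb6, Psmc6, Psmd12, Psmd9 and Psme4. Of 21 genes with a window that rose with the inhibitor 5 held it, and of the 18 others with a window 1 did. CCAAT stood in 33.3% of member windows against 37.4% of all, and the E-box in 7.14% against 7.15%. The ETS site was in 38.1% of member windows against 8.86% of all windows, and the GC box in 54.8% against 35.7%. By gene, the ETS site was found in 7 of the 21 that rose and in 8 of the 18 others, and the GC box in 12 and 10. No test was made of these shares. A match is a string of letters, not an occupied site, and a window without a match says only that these letters are missing from it.

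Reads assigned to genes ran from 11335948 to 19197912 per library, and values are normalized counts, that is reads divided by the authors' size factor for the library. All 9 myeloid markers looked for (Ptprc, Spi1, Cebpa, Mpo, Itgam, Csf1r, Kit, Hoxa9 and Meis1) were in the table, with summed normalized counts of 18320 to 19370 under DMSO and 26030 to 26640 under the inhibitor. Of 5 markers each, 0 T cell and 0 erythroid genes, 1 B cell gene (Cd79b, at most 28.5) and 1 stromal gene (Pdgfrb, at most 10.6) had a row. The markers did not move alike: Itgam (1667 to 6314) and Csf1r (1235 to 3912) account for most of the higher sum, Mpo (847 to 342), Cebpa (1269 to 873) and Kit (831 to 687) were lower with the inhibitor, and Ptprc was at 6900 and 6867. The part of these shifts in myeloid markers in the results that follow was not tested. In bulk RNA, a change in the number of cells of a kind and a change in RNA per cell cannot be told apart. DMSO library 2 stood apart in stress genes, with Trib3 at 1376 normalized counts against 126 and 218 in the other DMSO libraries, and calls of the genes named here that change without it are given beside them.

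With the inhibitor, transcripts of the proteasome were higher, and the calls were spread unevenly over its parts. Of the 46 genes 23 rose, 2 fell and 21 did not pass the test (limma on log2(normalized count + 1), Benjamini-Hochberg adjusted p under 0.05 over all genes). Over all genes 46.5% were called, 23.6% higher and 22.9% lower, so the members' share of higher calls (23 of 46) was above the background and that of lower calls (4.35%) below it. Their median log2 fold change was 0.25, beside 0.00 for all genes. For 25 members every inhibitor library lay above every DMSO library, and for 3 members every one lay below. Over all 11644 genes this held for 3278 and 3246. Groups without overlap were thus common among all genes and did not by themselves set a member apart. Counting only genes with a mean of at least 1000 normalized counts, 21 of 36 members rose and 0 fell, against 23.3% higher and 25.1% lower among all genes of that level. For the 0, and for lower calls in each of the 4 groups of core and cap genes, the unadjusted p under 0.05, edgeR and DESeq2 also gave 0. Summed over the 46 genes, the DMSO libraries held 96206, 88688 and 88328 normalized counts and the inhibitor libraries 111140, 114480 and 111310. Every inhibitor library was above every DMSO library, and the members took 0.7% to 0.722% of all counts with the inhibitor against 0.575% to 0.615% in DMSO. The mean of the summed normalized counts was 1.23 times that of DMSO.

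Medians differed by role. The alpha genes had a median log2 fold change of 0.545, the beta genes 0.356, the ATPase genes 0.286, the non-ATPase genes 0.182, the assembly factors 0.219 and the activators and inhibitor -0.0738. The 14 core genes without Psmb11 summed to 34965 ± 2062 normalized counts under DMSO and 48087 ± 2787 under the inhibitor (mean ± SD, n = 3), a ratio of 1.38. The 17 members of the 19S cap went from 40522 ± 1697 to 48429 ± 2171, a ratio of 1.20, and the 6 activator and inhibitor genes from 11215 ± 386 to 11112 ± 437. The cap proteins Shfm1 and Adrm1, given below, fall outside the naming rule and are not in the cap sum. The difference between these groups was not tested. When trends of each library with GC content and transcript length were removed, an alternative added after the data had been seen, the members' median fell from 0.251 to 0.167, with 18 higher and 2 lower; medians then were 0.387 for alpha, 0.218 for beta, 0.184 for ATPase and 0.204 for non-ATPase genes, so that the last 2 changed places, beside -0.0186 for all genes.

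**Figure D1:**
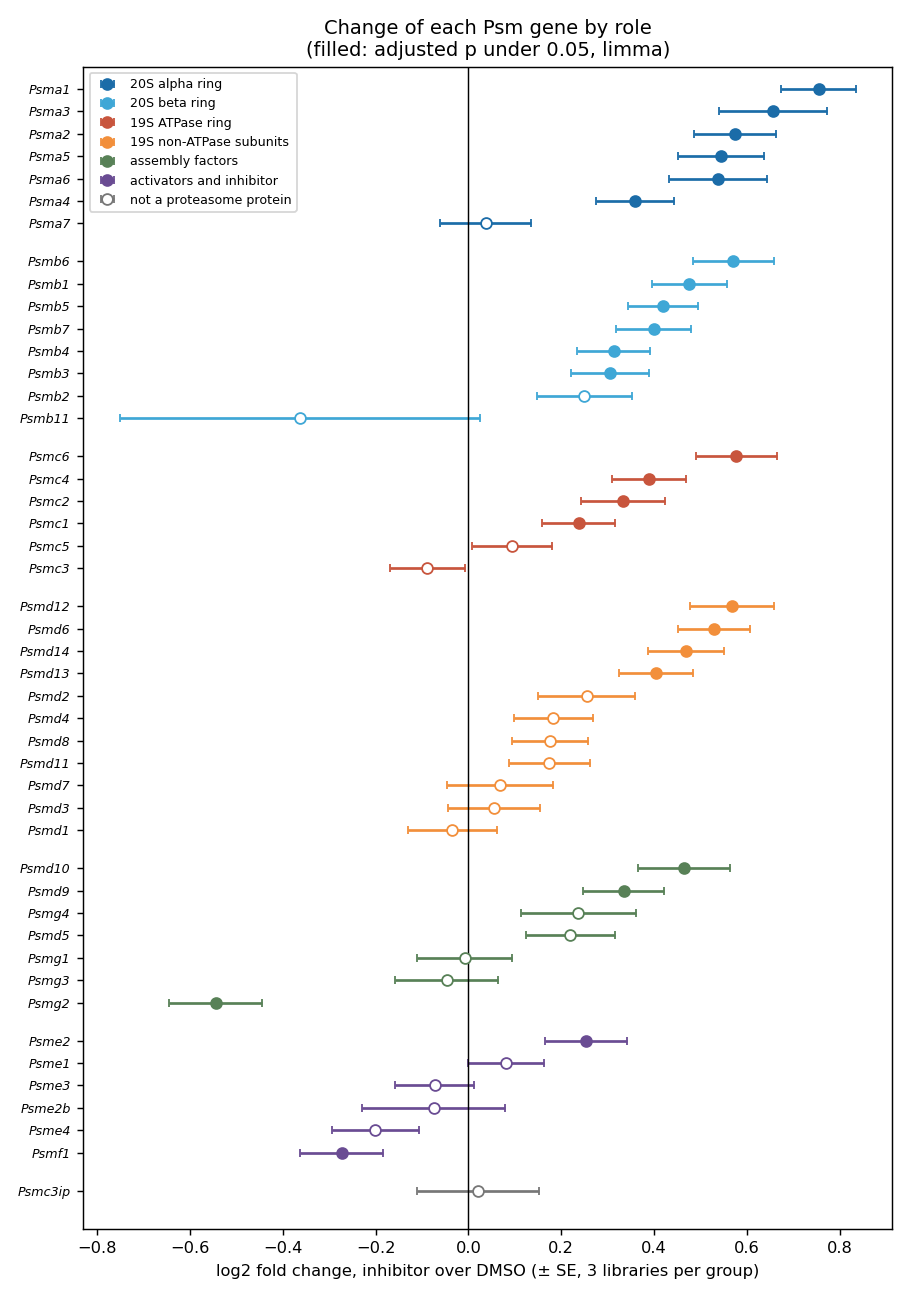
Log2 fold change (inhibitor minus DMSO) of each Psm gene with its limma standard error, arranged by role, with calls marked. Alpha and beta genes lie mostly right of 0, up to 0.75 for Psma1, and Psmg2 is the lowest called gene at -0.54.

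The alpha ring, whose subunits form the gate of the barrel, had the highest median of the 6 roles. Of its 7 genes 6 rose (85.7%, against 23.6% over all genes) and Psma7 did not. Psma1 showed the largest rise of any member in the limma fit: the DMSO libraries stood at 3209, 2883 and 3036 normalized counts and the inhibitor libraries at 5041, 5315 and 5035. The groups lay far apart, and the mean went from 3043 ± 163 to 5130 ± 160 (SD, n = 3), 1.69-fold, with a log2 change of 0.75 ± 0.08 (SE; limma adjusted p = 2.04e-05). Once GC and length trends were taken out its log2 change was 0.459 (limma adjusted p = 0.000741), below those of Psma3 (0.504), Psmb6 (0.49) and Psmd12 (0.462). Psma2 had 3276, 2779 and 2907 in DMSO and 4180, 4588 and 4564 with the inhibitor, without overlap, a 1.49-fold rise (log2 0.57 ± 0.09, limma adjusted p = 2.91e-04). For Psma5 the values were 2534, 2268 and 2223 against 3062, 3514 and 3688, also separate, a 1.46-fold rise (log2 0.54 ± 0.09, limma adjusted p = 5.90e-04).

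Psma3, Psma4 and Psma6 rose as well, by 1.59-, 1.28- and 1.46-fold. The inhibitor libraries of Psma3 were spread out, at 4416 ± 805 against 2772 ± 110 in DMSO. Psma4 went from 2344 ± 115 to 3008 and lost its call once GC and length trends were taken out (limma adjusted p = 0.408). Psma7, an alpha subunit of the same rings, had 3345, 2874 and 2943 in DMSO and 2782, 3208 and 3428 with the inhibitor. Its groups overlapped, and the log2 change of 0.04 ± 0.10 did not pass (limma adjusted p = 0.777). Per kilobase of exon, the ratio of Psma7 to Psma1 was 1.0, 0.958 and 0.932 in DMSO and 0.530, 0.580 and 0.654 with the inhibitor, lower in every inhibitor library than in any DMSO library, for subunits that the particle holds in equal number. That pair was chosen after its values were seen, and its ratio was not tested.

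In the beta ring 6 of 8 genes rose (75.0%) and 0 fell in the limma fit, against 23.6% higher and 22.9% lower over all genes. Psmb6, the caspase-like subunit, had 1926, 1879 and 1795 in the DMSO libraries and 2497, 2829 and 3013 with the inhibitor. The groups did not overlap, and the mean rose 1.49-fold, from 1867 ± 66.4 to 2780 ± 262 (log2 0.57 ± 0.09, limma adjusted p = 2.92e-04). Psmb5, which carries the chymotrypsin-like site and is the main target of proteasome inhibitor drugs, was tight within groups, at 1229, 1206 and 1146 against 1616, 1628 and 1544. It rose 1.34-fold (log2 0.42 ± 0.08, limma adjusted p = 9.20e-04). Psmb7, the trypsin-like subunit, had 2483, 2259 and 2368 in DMSO and 3182, 3264 and 2933 with the inhibitor, a 1.32-fold rise without overlap (log2 0.40 ± 0.08, limma adjusted p = 0.00178). All 3 catalytic genes thus rose, and none lost its call when any library was left out; once GC and length trends were taken out Psmb7 stood at a limma adjusted p of 0.0506.

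Psmb1, a structural subunit without a proteolytic site, had 3271, 3026 and 2983 in DMSO and 4087, 4496 and 4321 with the inhibitor. These values were separate, a 1.39-fold rise (log2 0.48 ± 0.08, limma adjusted p = 5.85e-04). The structural Psmb3 and Psmb4 rose by 1.23- and 1.24-fold; Psmb3 was no longer called in the absence of DMSO library 3 (limma adjusted p = 0.0621) or once GC and length trends were taken out (0.122). Psmb2 went from 2111 ± 256 to 2506, a log2 change of 0.25 ± 0.10 that did not pass (limma adjusted p = 0.0659); without DMSO library 1 (0.0272) or inhibitor library 1 (0.0419) it was called higher. Psmb11, the subunit of thymic epithelium, was the lowest member, with 14.7, 17.8 and 25.5 in DMSO and 10.2, 11.2 and 25.8 with the inhibitor. At so few counts the groups overlapped (log2 -0.36 ± 0.39, limma adjusted p = 0.466).

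**Figure D2:**
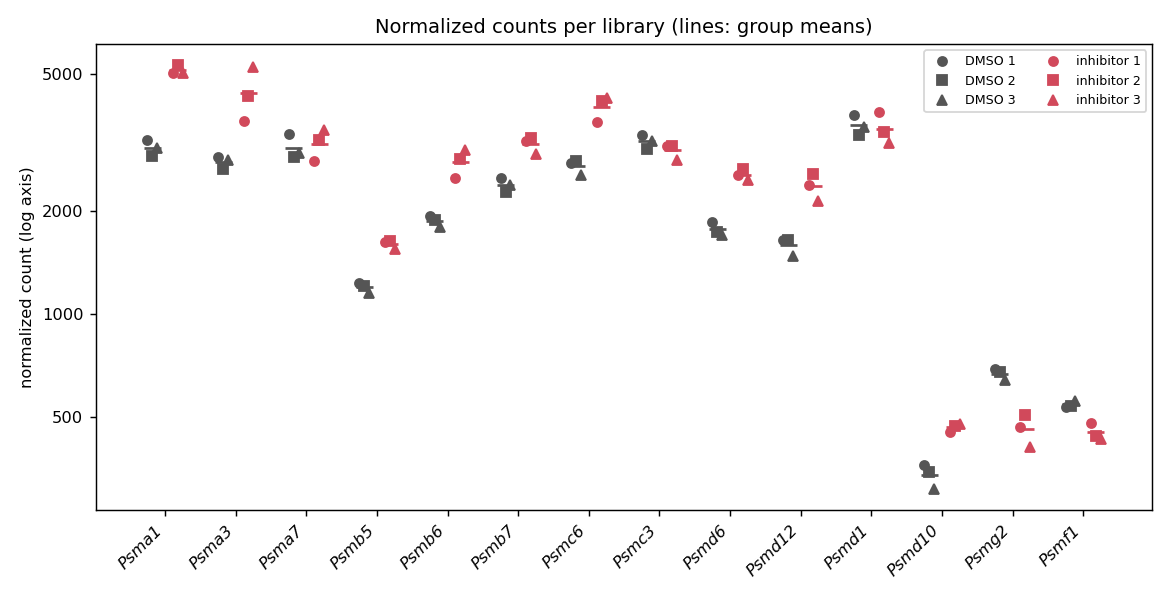
Normalized counts on a log axis for selected genes in each of the 6 libraries, DMSO beside inhibitor. Inhibitor libraries of Psma1 (5035 to 5315) lie above all DMSO libraries (2883 to 3209), whereas those of Psma7 overlap.

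Psmb5, Psmb6 and Psmb7 are replaced in the immunoproteasome by Psmb8, Psmb9 and Psmb10, which interferon is known to induce. None of these 3 genes rose. Psmb9 stood at 1596, 1348 and 1444 in DMSO and 499.5, 523.0 and 517.6 with the inhibitor, 2.85-fold lower (log2 -1.51, limma adjusted p = 2.30e-07). Psmb10 went from 1405 ± 60.4 to 1029 ± 90.5 (log2 -0.45, limma adjusted p = 0.00135), and Psmb8 from 5833 ± 662 to 5714 ± 344 (log2 -0.03, limma adjusted p = 0.851). Per kilobase of exon, Psmb6 over Psmb9 was 2.36, 2.73 and 2.43 in DMSO and 9.77, 10.6 and 11.4 with the inhibitor. Psmb7 over Psmb10 was 0.843, 0.803 and 0.876 against 1.41, 1.61 and 1.54. Psmb5 over Psmb8 was 0.702, 0.854 and 0.769 against 1.03, 1.04 and 1.09. For each of the 3 sites the groups of libraries were separate, with the constitutive transcript in larger proportion after the inhibitor. These ratios were not among the planned results and were not tested.

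**Figure D3:**
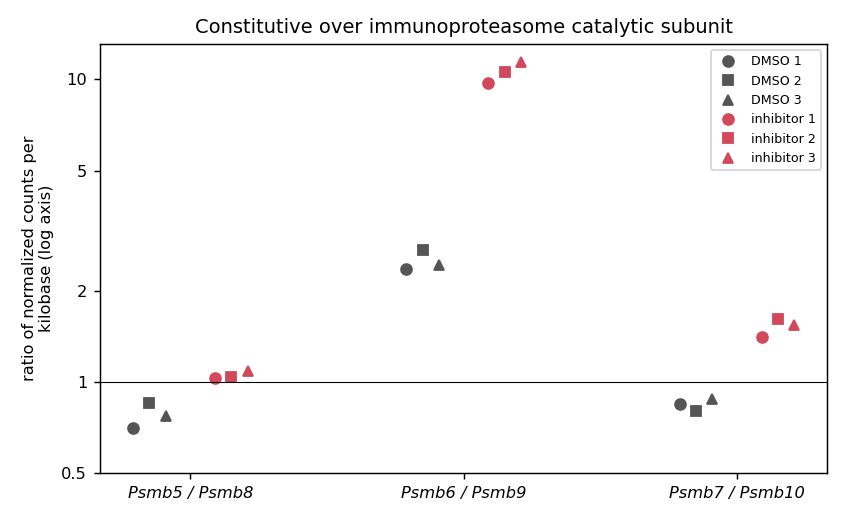
Ratio of each constitutive catalytic subunit to its immunoproteasome counterpart, per kilobase of exon on a log axis, in each library. For Psmb6 over Psmb9 the DMSO libraries lie at 2.36 to 2.73 and the inhibitor libraries at 9.77 to 11.4.

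The ATPase ring unfolds the substrate. Of its 6 genes 4 rose (66.7%) and 0 fell in the limma fit, against 23.6% higher and 22.9% lower over all genes. Psmc6 had 2749, 2787 and 2536 in the DMSO libraries and 3628, 4166 and 4276 with the inhibitor, and the mean rose from 2691 ± 135 to 4023 ± 346 without overlap (log2 0.58 ± 0.09, limma adjusted p = 2.86e-04). Psmc4 had 2642, 2420 and 2395 against 3138, 3423 and 3198, also separate (1.31-fold, log2 0.39 ± 0.08, limma adjusted p = 0.00204). Psmc2 had 1658, 1553 and 1496 against 2063, 2123 and 1761, a 1.26-fold rise (log2 0.33 ± 0.09, limma adjusted p = 0.0102).

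Psmc1 rose 1.18-fold, while Psmc3 (3187 ± 151 to 2997) and Psmc5 (1563 ± 73.6 to 1671) did not pass, with log2 changes of -0.09 and 0.09 (limma adjusted p = 0.388 and 0.391). The calls of Psmc1 and Psmc2 were the weaker ones of the ring. Without inhibitor library 2, Psmc2 (limma adjusted p = 0.0594) and Psmc1 (0.0570) were lost, leaving 2 of 6. Psmc1 was lost also without DMSO library 2 (0.0532), DMSO library 3 (0.0984) or inhibitor library 1 (0.0705), and once GC and length trends were taken out (0.15).

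The non-ATPase subunits include the scaffolds, the ubiquitin receptors and the lid. Of 11 genes 4 rose (36.4%, against 23.6% over all genes) and 0 fell in the limma fit. Psmd6, a lid subunit, had 1858, 1732 and 1701 in DMSO and 2536, 2648 and 2456 with the inhibitor, 1.44-fold higher without overlap (log2 0.53 ± 0.08, limma adjusted p = 2.11e-04). Psmd12, another lid subunit, had 1640, 1640 and 1475 against 2380, 2552 and 2128, likewise separate (1.48-fold, log2 0.57 ± 0.09, limma adjusted p = 3.56e-04). Psmd14, the deubiquitinase that cuts ubiquitin chains off the substrate, had 2400, 2419 and 2272 against 3125, 3560 and 3147. It rose 1.39-fold without overlap (log2 0.47 ± 0.08, limma adjusted p = 7.22e-04). The fourth was Psmd13, at 1.32-fold (limma adjusted p = 0.00159).

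Psmd7, which pairs with Psmd14 in the lid, did not pass (1344 ± 200 to 1404, limma adjusted p = 0.652). Psmd4, a ubiquitin receptor, had 2172, 2035 and 2077 in DMSO and 2604, 2356 and 2187 with the inhibitor. Its groups did not overlap, yet the log2 change of 0.18 ± 0.09 did not pass (limma adjusted p = 0.0990), though it did without inhibitor library 3 (0.0385). Psmd2, a large scaffold of the base and the member with the highest mean count, had 5265, 4547 and 4740 against 6581, 5708 and 5130. The lowest inhibitor library was below the highest DMSO library, and the log2 change of 0.25 ± 0.10 did not pass (limma adjusted p = 0.0640); it passed on recovered reads with DESeq2 (adjusted p = 0.0378), without inhibitor library 3 (limma adjusted p = 0.0195) and once GC and length trends were taken out (limma adjusted p = 0.0339). Psmd1, the other large scaffold, was at 3548 ± 245 and 3471 (log2 -0.03 ± 0.10, limma adjusted p = 0.786). The ratio of Psmd1 to Psmd2 per kilobase was 0.403, 0.407 and 0.410 in DMSO and 0.328, 0.330 and 0.341 with the inhibitor, without overlap. That pair was not among the planned results, and its ratio was not tested. Psmd3, Psmd8 and Psmd11 had log2 changes of 0.06, 0.18 and 0.17 and did not pass.

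Assembly factors, which chaperone the rings and leave the finished particle, were called in both directions. Of 7 genes 2 rose (28.6%), 1 fell (14.3%) and 4 did not pass, against 23.6% higher and 22.9% lower over all genes. Psmg2, a chaperone that pairs with Psmg1 to start the alpha ring, showed the largest fall of any member. Its DMSO libraries stood at 687, 677 and 641 normalized counts and its inhibitor libraries at 466, 506 and 407, wholly below. The mean went from 669 ± 24.3 to 460, 1.45-fold lower (log2 -0.54 ± 0.10, limma adjusted p = 9.97e-04). Its partner Psmg1 was at 524 ± 58.8 and 520 (limma adjusted p = 0.954), and Psmg3 and Psmg4, the other chaperone pair of the alpha ring, also did not pass (0.754 and 0.136); Psmg4 was called higher without inhibitor library 1 (0.0248).

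Psmd10, also called gankyrin, and Psmd9 help assemble the ATPase ring. Psmd10 had 362, 345 and 308 against 450, 471 and 477, a 1.38-fold rise without overlap (log2 0.46 ± 0.10, limma adjusted p = 0.00255), which was not called once GC and length trends were taken out (0.124). Psmd9 had 455, 463 and 431 against 566, 554 and 582, a 1.26-fold rise (log2 0.33 ± 0.09, limma adjusted p = 0.00831). A lincRNA on the other strand overlaps 25.5% of its exon bases. Genes on the other strand also overlap 11.8% of those of Psmb7 (Nek6) and 10.1% of those of Psmd13 (Sirt3). On the same strand, Mir686 overlaps 12.1% of those of Psmb5. The strand setting of the counting is not given in the sources used here. Psmd5, the third chaperone of the ATPase ring, did not pass (log2 0.22, limma adjusted p = 0.0812). It was called higher without DMSO library 1 (0.0461) or inhibitor library 3 (0.0417).

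Activators dock on the ends of the core in place of the 19S cap. Psme1 and Psme2 form the interferon-inducible activator; Psme2 had 1971, 1874 and 1789 in DMSO and 2010, 2313 and 2402 with the inhibitor, just above (1.19-fold, log2 0.25 ± 0.09, limma adjusted p = 0.0343), while Psme1 did not pass (log2 0.08, limma adjusted p = 0.442). Psme2b, a near copy of Psme2 with 1 exon whose reads may be split with it, stood at 91.6 and 87.0. Psme3, the nuclear activator, had 2411, 2286 and 2245 against 2420, 2167 and 2027, with overlap (log2 -0.07 ± 0.09, limma adjusted p = 0.511). Psme4, an activator linked to histone turnover, had 3407, 3415 and 3380 in DMSO and 3333, 2984 and 2606 with the inhibitor. All 3 inhibitor libraries were lower, but by unequal amounts (log2 -0.20 ± 0.09, limma adjusted p = 0.102). Without inhibitor library 1 it was called lower (log2 -0.286, limma adjusted p = 0.0227).

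Psmf1, an inhibitor of the 20S core, was the other member that fell. It had 536, 538 and 558 in DMSO and 478, 440 and 432 with the inhibitor, 1.21-fold lower without overlap (log2 -0.27 ± 0.09, limma adjusted p = 0.0260). The calls of Psme2 and Psmf1 were close to the threshold. Psmf1 was lost with DESeq2 (adjusted p = 0.0547) and without DMSO library 1 (limma adjusted p = 0.0585), DMSO library 3 (0.0916), inhibitor library 2 (0.0849) or inhibitor library 3 (0.0632). Psme2 was lost without DMSO library 2 (0.0551), DMSO library 3 (0.124), inhibitor library 2 (0.123) or inhibitor library 3 (0.0989), and once GC and length trends were taken out (0.133).

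Psmc3ip, the gene that is no proteasome gene, had 294, 237 and 245 in DMSO and 235, 250 and 303 with the inhibitor. Its groups overlapped fully (log2 0.02 ± 0.13, limma adjusted p = 0.910).

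**Figure D4:**
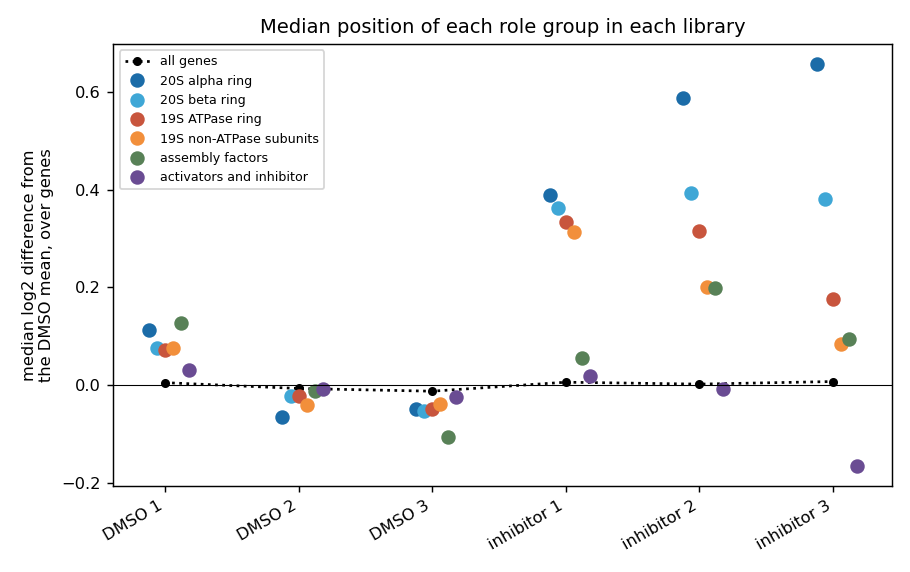
Median over the genes of each role of the log2 difference from the DMSO mean, in each library, with all genes beside them. Alpha genes lie at 0.389 to 0.657 in the inhibitor libraries, while all genes stay near 0 in every library.

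Seen by library, the core was above the DMSO mean in all 3 inhibitor libraries. The alpha median stood at 0.389, 0.588 and 0.657 above the DMSO mean in inhibitor libraries 1 to 3, and the beta median at 0.363, 0.394 and 0.381. Non-ATPase genes were at 0.314, 0.200 and 0.0834, so that inhibitor library 3 was highest for the alpha ring and lowest for these. DMSO library 1 was the highest control, with the members at 0.0787 against -0.0327 and -0.0504, where the median of all genes lay between -0.0126 and 0.00491.

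Levels between genes were compared per kilobase of exon. Over all exons, Psma6 was highest, at 2127 ± 150 normalized counts per kilobase under DMSO and 3102 ± 434 under the inhibitor. By the longest protein-coding transcript it was not: Psmb3 was highest in DMSO, at 2827 against 2519 for Psma6, and Psma1 with the inhibitor, at 4272 against 3674. Psmd11 was lowest among structural genes of the core and cap apart from Psmb11, at 158 ± 8.86 and 179 ± 13.4. The median core gene stood at 1.34 times the median cap gene in DMSO and at 1.51 times with the inhibitor; with the length of the longest protein-coding transcript in place of all exons these ratios were 1.84 and 2.02. The members lie on 16 chromosomes. Over the 31 structural genes of core and cap without Psmb11, GC content and log2 fold change had a Spearman rho of -0.502, and over 9071 genes with a mean of at least 100 normalized counts -0.105. These points share the same 6 libraries and are given as a description.

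**Figure D5:**
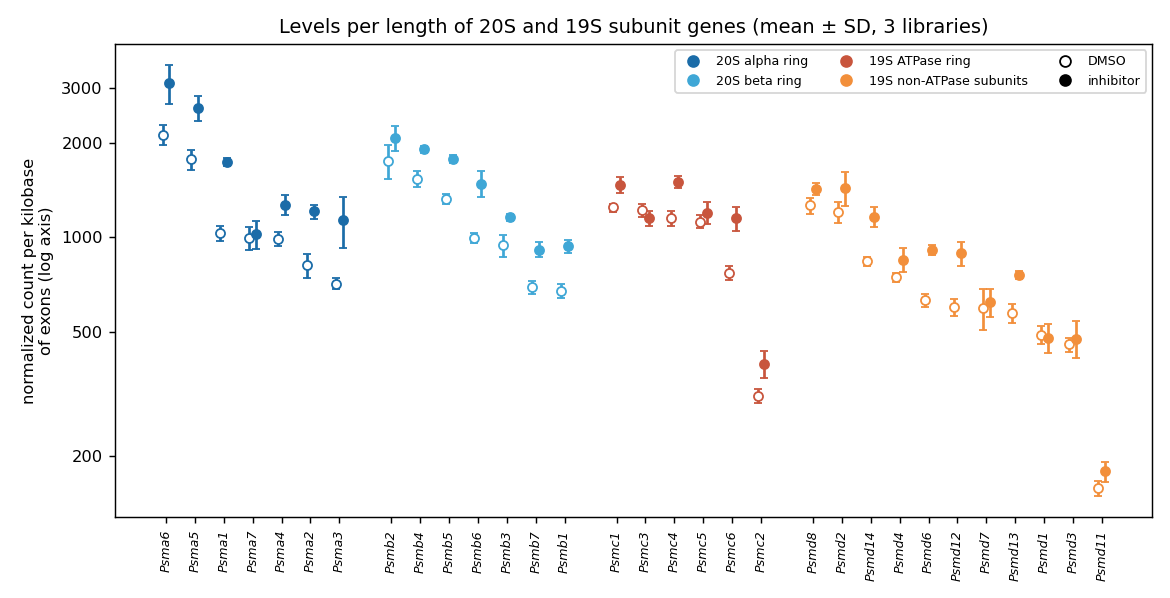
Normalized counts per kilobase of exon on a log axis, by role and group, with the mean and SD of 3 libraries. Psma6 is the highest at 2127 in DMSO and 3102 with the inhibitor.

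Genes that work with the proteasome but fall outside the naming rule were called in both directions. Of 52 such genes, the immunoproteasome apart, 10 rose, 8 fell and 34 did not pass, with a median log2 change of 0.02. Of all 55 with the immunoproteasome, 18.2% were higher and 18.2% lower. Both shares were below those over all genes (23.6% and 22.9%). Among 14 cofactors 5 rose (35.7%) and 1 fell (7.14%) in the limma fit. Ube3c, named after its values were seen, did not pass there (log2 -0.21, limma adjusted p = 0.0624). It was called lower with edgeR (adjusted p = 0.0461) and on log2 CPM with TMM factors (limma adjusted p = 0.0411). The same held without inhibitor library 1 (0.0215) and with the replicate block. Zfand2a, a stress-induced proteasome binder, went from 427 ± 80.7 to 917 ± 38.1 (log2 1.12, limma adjusted p = 2.38e-05). Shfm1, the small cap subunit also named Sem1, went from 2018 ± 112 to 3338 ± 347 (log2 0.72, limma adjusted p = 7.98e-05). Pomp, which matures the core, rose from 2015 ± 193 to 2669 ± 217 (limma adjusted p = 0.00395), and so did Txnl1, a cap-bound thioredoxin. Adrm1, a ubiquitin receptor of the cap, rose from 1272 to 1501 (limma adjusted p = 0.0223), and lost its call without DMSO library 1 (0.06), DMSO library 3 (0.0777) or inhibitor library 1 (0.0535). The cofactor that fell was AI314180, now Ecpas, which tethers cap to core, from 5463 ± 84.5 to 4129 ± 104 (limma adjusted p = 0.00123); it and Txnl1 were named after their values were seen.

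Shuttle factors carry ubiquitinated proteins to the cap. Of 8 genes 2 fell (25.0%, against 22.9% over all genes) and 0 rose in the limma fit, with a median of -0.105. The 0 higher held also at an unadjusted p under 0.05, with edgeR and with DESeq2. That 0 rests on DMSO library 2. Sqstm1, an autophagy receptor that binds ubiquitin, named after its values were seen, had 4009, 12417 and 4426 in DMSO and 9726, 9117 and 8415 with the inhibitor (log2 0.59, limma adjusted p = 0.148). Without DMSO library 2 it was called higher (log2 1.11, limma adjusted p = 1.24e-06), and so it was with the replicate number as a block (0.0427). Ubqln4, which binds ubiquitin chains, went from 1478 ± 106 to 963 ± 116 (limma adjusted p = 3.88e-04). Among 6 ubiquitin and activating enzyme genes only Rps27a, a fusion of ubiquitin with a ribosomal protein, was called, as higher (log2 0.43, limma adjusted p = 0.0188), and that call was lost without DMSO library 3 (0.0805), inhibitor library 2 (0.0977) or inhibitor library 3 (0.0502) and once GC and length trends were taken out (0.176). Uba1, the main activating enzyme, did not pass (log2 -0.25, limma adjusted p = 0.0798), but was called lower without inhibitor library 1 (log2 -0.352, limma adjusted p = 0.0144) and with the replicate block (0.0316). Of 12 genes of the p97 unfoldase, which extracts proteins for degradation, 4 rose (33.3%) and 1 fell (8.33%), against 23.6% and 22.9% over all genes. The call of Nploc4 was lost with edgeR (adjusted p = 0.0604) and when any library except inhibitor library 2 was left out. Ufd1l went from 667 to 887 (limma adjusted p = 0.00207) and Ubxn7 from 2102 to 1487 (0.00159).

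The NRF1 list had 12 genes, of which 4 fell (33.3%, against 22.9% over all genes) and 0 rose in the limma fit. For higher calls, 2 genes had an unadjusted limma p under 0.05, and edgeR and DESeq2 gave 0. Without DMSO library 2, Nfe2l2 (log2 0.527, limma adjusted p = 0.000719) and Maff (log2 0.939, 0.00102) were called higher, and with the replicate block these 2 and Syvn1 were. Taking out GC and length trends gave 2 higher calls, Syvn1 and Fbxw7, and a minimum mean of 100, or leaving out DMSO library 3, inhibitor library 1 or inhibitor library 3, gave 1. The lower call of Ogt was lost without DMSO library 1 (0.062), DMSO library 3 (0.145), inhibitor library 1 (0.0789) or inhibitor library 2 (0.0884). Nfe2l1 itself had 1747, 2750 and 1780 in DMSO and 2016, 1864 and 1803 with the inhibitor. DMSO library 2 was the high value there, and the log2 change of -0.11 ± 0.15 did not pass (limma adjusted p = 0.555); without that library it was 0.10. Ngly1, the glycosidase that processes NRF1, fell from 511 ± 54.8 to 341 ± 28.1 (limma adjusted p = 0.00118), and Mafk, a binding partner, from 1293 ± 23.1 to 906 ± 96.7 (7.05e-04). NRF1 is regulated largely through its protein, which transcript levels do not show.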

How the data were processed

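Per the labels' protocols, polyadenylated RNA was made into stranded libraries. Per the submitters' processing notes the build was mm10 and the tools were TopHat2 2.0.10, HTSeq 0.6.0, DESeq 1.16.0 and CASAVA 1.8.2; which step each served and the strand setting are not stated. The authors deposited a signal per gene and library: reads divided by a size factor (0.715 to 1.24), worked out from the values, of which 100% were whole multiples of a step within 1e-06. The depth of 11335948 to 19197912 reads per library limits precision mainly for genes with few counts. Libraries of the same group differed by more than read sampling gives (chi-square per degree of freedom 9.29 to 20.5 over all genes).

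Groups came from the sample titles. The trend method of limma 3.58.1 in R 4.3.3 on log2(value + 1) compared 3 with 3 libraries over 11644 genes without a further filter, two-sided, with Benjamini-Hochberg adjustment, threshold 0.05 and 4 residual degrees of freedom; the log scale understates changes of low genes. On recovered reads, edgeR 4.0.16 called 2593 genes higher and 2819 lower; DESeq2 1.42.0 was also run. Other alternatives were log2 CPM with TMM factors, upper-quartile scaling, pseudocounts 0.5 and 5, a minimum mean of 100, a replicate block and each library left out. The members and gene lists were chosen with earlier results of these data known. Every library's value was given for the 3 members of each role with the smallest adjusted p, for Psmb5, Psmb6, Psmb7, Psmd4, Psmd14, Psme3, Psmf1 and Psmc3ip, and for the extremes of level and change. Outside the members, Nfe2l1, Psmb8, Psmb9, Psmb10, Pomp, Adrm1 and the 2 genes of each list with the smallest adjusted p were named, except 1 list gene that is counted but not reported here. Exons came from GENCODE mouse release 21, matched by symbol for 11571 genes (99.4%). The main limma fit and the edgeR fit were tested on simulated data in which few genes changed, unlike in these data. The other fits were not tested in that way.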

Additional observations from a re-analysis of the deposited data

How the results depend on the processing

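Of the 25 members called, 20 kept their call with each library left out in turn and 17 in every alternative run. Leaving out 1 library gave 20 to 25 members higher, 1 to 3 lower and a median log2 fold change of 0.229 to 0.308. DESeq2 called 1 member lower in place of 2. Taking out GC and length trends lowered the members' median to 0.167. With the longest transcript the ratio of core to cap per kilobase was 1.84 in DMSO and 2.02 with the inhibitor. Genes that did not pass changed sign: Psmc3ip at -0.00147 on log2 CPM with TMM factors, and once GC and length trends were taken out Psmc3ip at -0.111, Psma7 at -0.0827, Psmd7 at -0.0287 and Psmb8 at 0.0116. With 1 library left out the log2 change ran from -0.087 to 0.114 for Psmc3ip, -0.0288 to 0.122 for Psma7, -0.0269 to 0.182 for Psmd7, -0.0895 to 0.0645 for Psmb8, -0.118 to 0.0332 for Psmd1, -0.0762 to 0.0789 for Psmg1, -0.131 to 0.0448 for Psmg3, -0.0515 to 0.13 for Psmd3 and -0.226 to 0.102 for Nfe2l1. The cause of these shifts was not tested. Libraries with the same number correlated at 0.165, 0.0499 and 0.205 in their deviations from the group means, each best with its own number, which is a hint from the data and not the design. With the replicate block 26 members were higher and 2 lower, with Psmb2 (limma adjusted p = 0.0432), Psmd2 (0.0251) and Psmd5 (0.0275) now called higher; outside the members Uba1 and Ube3c were called lower and Sqstm1, Nfe2l2, Maff and Syvn1 higher, and over all genes 3016 higher and 2916 lower. Depth limits Psmb11, at a DMSO mean of 19.3 normalized counts, most.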
